A study of Homo sapiens with 8 samples.

Results

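The enzymes that make, salvage and clear deoxyribonucleoside triphosphates (dNTPs) were followed at the level of factory RNA in human fibroblasts exposed to inflachromene (ICM). They are 9 genes, TYMS, RRM1, RRM2, RRM2B, TK1, DUT, DCK, DCTPP1 and SAMHD1, found by symbol among the 28265 genes of the count tables. All 9 passed the filter on low counts in every comparison. The cells are IMR90, a line of fetal human lung fibroblasts, and ICM is a small molecule that binds the chromatin proteins HMGB1 and HMGB2. There were 4 conditions with 2 libraries each, all from low passage cells. The control is labelled young and carries no treatment in the labels, 2 further conditions had ICM for 3 or 6 days, and the last is labelled MetaICM. The sources used here name MetaICM only as a treatment, with no dose or time, and give it no further description. Factory RNA-Seq enriches for nascent RNA held at sites of transcription, although the labels describe poly(A) selected RNA from cells lysed directly. The labels do not say whether the 2 libraries of a condition come from separate cultures, so each p measures the spread between these libraries, which may be technical.

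As background, a dividing cell needs a balanced supply of 4 dNTPs during S phase. Ribonucleotide reductase makes them by reducing ribonucleotides, with a large catalytic subunit, RRM1, and a small subunit that is either RRM2, produced in S phase, or RRM2B, a p53 target that serves DNA repair and mitochondrial DNA in cells that do not divide. Thymidylate has its own branch, in which DUT turns dUTP into dUMP, TYMS methylates dUMP to dTMP with a folate cofactor, and TK1 recovers dTMP from thymidine. DCK phosphorylates salvaged deoxycytidine, DCTPP1 removes dCTP and its modified forms, and SAMHD1 degrades dNTPs and is known for keeping pools low in resting cells.

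Promoter sequences were searched for words known from cell cycle genes. Windows from 250 bases before to 50 bases after each RefSeq start were available for 8 of the 9 genes (GRCh38.p14), with RRM2B the gene without one. An E2F word (TTTCCCGC, TTTGGCGC, TTTCGCGC or TTTGCCGC, on either strand) stood in the windows of TYMS, DUT and DCK and in those of 3.99% of 27305 genes. The CCAAT box, bound by NF-Y, stood in those of RRM1, RRM2, TK1 and SAMHD1, and in 39.7% of all genes. The CHR words TTTGAA and TTTAAA, sites of the DREAM and MuvB complexes, were found for RRM1, RRM2, TK1 and DUT and for 27.9% of all genes. RRM2 and TK1 had 2 windows each and DUT 4, against 1 for the others, so they had more sequence in which a word could occur. No word of the 3 kinds was found for DCTPP1. A match describes these letters and not binding. The stretches of 30 bases below surround the words of 6 genes, with the words in capitals, read 5′ to 3′ on the gene's strand and placed in hg19. They are shown as examples of the CCAAT and E2F words in these promoters, and their relation to the response to ICM was not tested.
RRM2, + strand, chr2:10262731-10262760: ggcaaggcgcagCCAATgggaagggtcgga
RRM2, + strand, chr2:10262788-10262817: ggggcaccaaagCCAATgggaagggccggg
TK1, − strand, chr17:76183193-76183222: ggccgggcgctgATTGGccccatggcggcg
TK1, − strand, chr17:76183162-76183191: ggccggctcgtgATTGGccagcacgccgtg
RRM1, + strand, chr11:4115875-4115904: gcatgtccatatCCAATggggcccatggga
TYMS, + strand, chr18:657603-657632: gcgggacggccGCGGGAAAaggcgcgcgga
DUT, + strand, chr15:48624349-48624378: ctgGCGGGAAAtttcggtTTTGGCGCgctc
SAMHD1, − strand, chr20:35580138-35580167: caggaggCCAATaggctgCCAATactcctt

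Counted with the first transcribed base as 1, the printed words begin at −123 and −66 for RRM2, −77 and −46 for TK1, −28 for RRM1, −39 for TYMS, −42 and −27 for DUT and −49 and −38 for SAMHD1. ATTGG in TK1 is CCAAT read from the other strand, and GCGGGAAA in TYMS and DUT is TTTCCCGC read likewise. The stretches of RRM2, TK1 and SAMHD1 lie inside the first exon of a longer transcript in the gene models used for counting, and upstream of a shorter one. That of DUT lies within the span of the counted gene, which starts at 48623292, and upstream of a later start.

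The libraries held 12095123 to 23166405 read pairs counted on exons. Levels are given as CPM, the read pairs of a gene relative to the library's total, scaled by TMM factors over all 8 libraries. All 8 fibroblast markers were detected in every library, and their summed level was 53219 to 59244 CPM in control, 26056 to 26875 after 3 days of ICM, 20296 to 20539 after 6 days and 33318 to 36350 in MetaICM. The 9 markers of epithelium, endothelium and leukocytes summed to 7.12 to 9.33 CPM in control, 22 to 25.1 after 3 days, 23.5 to 25.7 after 6 days and 15.1 to 16.5 in MetaICM, with EPCAM, KRT5, SFTPC, PECAM1 and CDH5 at 0 in at least 1 library. Of these 9, CD68 ranged from 4.22 to 20.5 CPM over the libraries, VWF from 1.43 to 4.89, and no other passed 1.29. The part of the markers in the results was not tested. In bulk RNA, a change in the share of cells in S phase and a change in RNA per cell cannot be told apart. By flow cytometry, the paper reports arrest in late S phase with ICM, with a larger share of cells there than with DMSO. The share of cells in S phase was not tested in these libraries. By imaging of labelled nascent RNA, the paper also reports a drop in the nucleus and nucleoli with ICM. CPM and the fold changes below are relative to the other RNA of a library. A rise or fall in them, small ones above all, need not be one per cell. RNA per cell was not tested.

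ICM lowered the relative levels of most of the supply enzymes and raised that of RRM2B. A gene was called with a Benjamini-Hochberg adjusted p under 0.05 in edgeR's quasi-likelihood test and an absolute log2FC over 0.6. After 3 days, 6 of the 9 genes were lower than control (RRM2, TK1, TYMS, RRM1, DCK and DUT) and 1 was higher (RRM2B). For scale, 13.2% of the 15692 genes tested were called lower and 8.85% higher. With library totals in place of TMM, 1767 genes were lower and 1785 higher, against 2067 and 1389, and 5 of the 9 genes were lower, since DUT lost its call. After 6 days the same 6 genes were lower and RRM2B was higher, beside 17.2% of 15950 genes called lower and 13.3% called higher. The median log2FC of the 7 enzymes other than RRM2B and SAMHD1 was −1.30 after 3 days and −1.45 after 6 days, with all 7 below 0 both times, while the median over all genes tested was 0.01 and −0.0013. Both comparisons use the same control libraries.

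**Figure D1:**
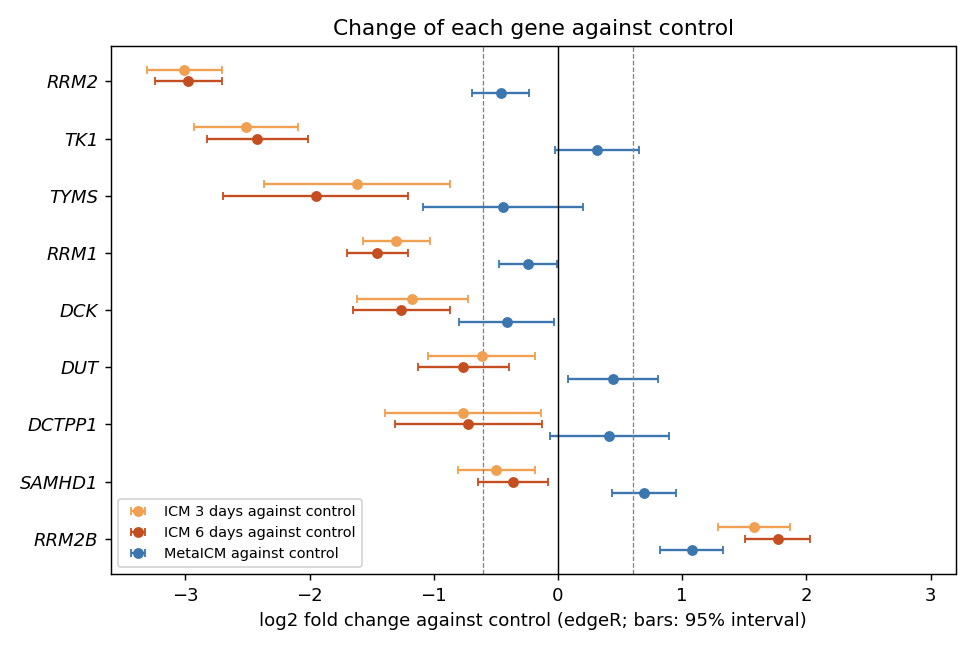
The log2FC of each gene against control is plotted on the x axis for 3 days of ICM, 6 days of ICM and MetaICM. Points are edgeR estimates, bars are 95% intervals and dashed lines mark 0.6 in each direction. The ICM estimates of RRM2 and TK1 lie below −2.4, and RRM2B is the gene whose 3 estimates all lie above 0.6.

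The small subunit RRM2 had the largest fall among the 9 genes by estimate. RRM2 had 169 and 162 CPM in control, 19.3 and 22.04 after 3 days, 19.9 and 22.3 after 6 days and 118 and 123 in MetaICM. All 4 ICM libraries lay far below both control libraries, with MetaICM in between. This left 12.4% of control after 3 days (log2FC −3.01, standard error 0.14, adjusted p = 2.39e-08) and 12.7% after 6 days (log2FC −2.97, standard error 0.12, adjusted p = 7.38e-08). RRM2 lies on chromosome 2 of hg19 from 10262695 to 10351136 and has 3 named pseudogenes, whose reads could be mixed with its own.

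The large subunit RRM1 fell less. Its levels were 208 and 193 CPM in control, 81.0 and 82.6 after 3 days, 71.2 and 75.9 after 6 days and 170.0 and 171 in MetaICM. ICM left 40.6% of control after 3 days (log2FC −1.30, standard error 0.12, adjusted p = 8.14e-06) and 36.5% after 6 days (log2FC −1.45, standard error 0.11, adjusted p = 3.96e-06). The intervals of RRM1 (−1.57 to −1.03 after 3 days) and RRM2 (−3.31 to −2.71) did not meet. The ratio of RRM1 to RRM2 per length moved from 1.54 ± 0.0328 (SD, n = 2) in control to 5.03 ± 0.409 after 3 days and 4.42 ± 0.146 after 6 days, and was 1.79 ± 0.0498 in MetaICM.

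RRM2B, the other small subunit, moved in the opposite direction. It had 28.1 and 28.3 CPM in control, 86.4 and 82.4 after 3 days, 97.8 and 94.99 after 6 days and 59.3 and 60.0 in MetaICM. Libraries of a condition lay close together and the 4 conditions did not overlap. RRM2B rose 2.99-fold after 3 days (log2FC 1.58, standard error 0.13, adjusted p = 3.42e-06) and 3.41-fold after 6 days (log2FC 1.77, standard error 0.12, adjusted p = 1.46e-06). It lies on chromosome 8 from 103216729 to 103251189, shares no exon base with another gene and has no named pseudogene.

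**Figure D2:**
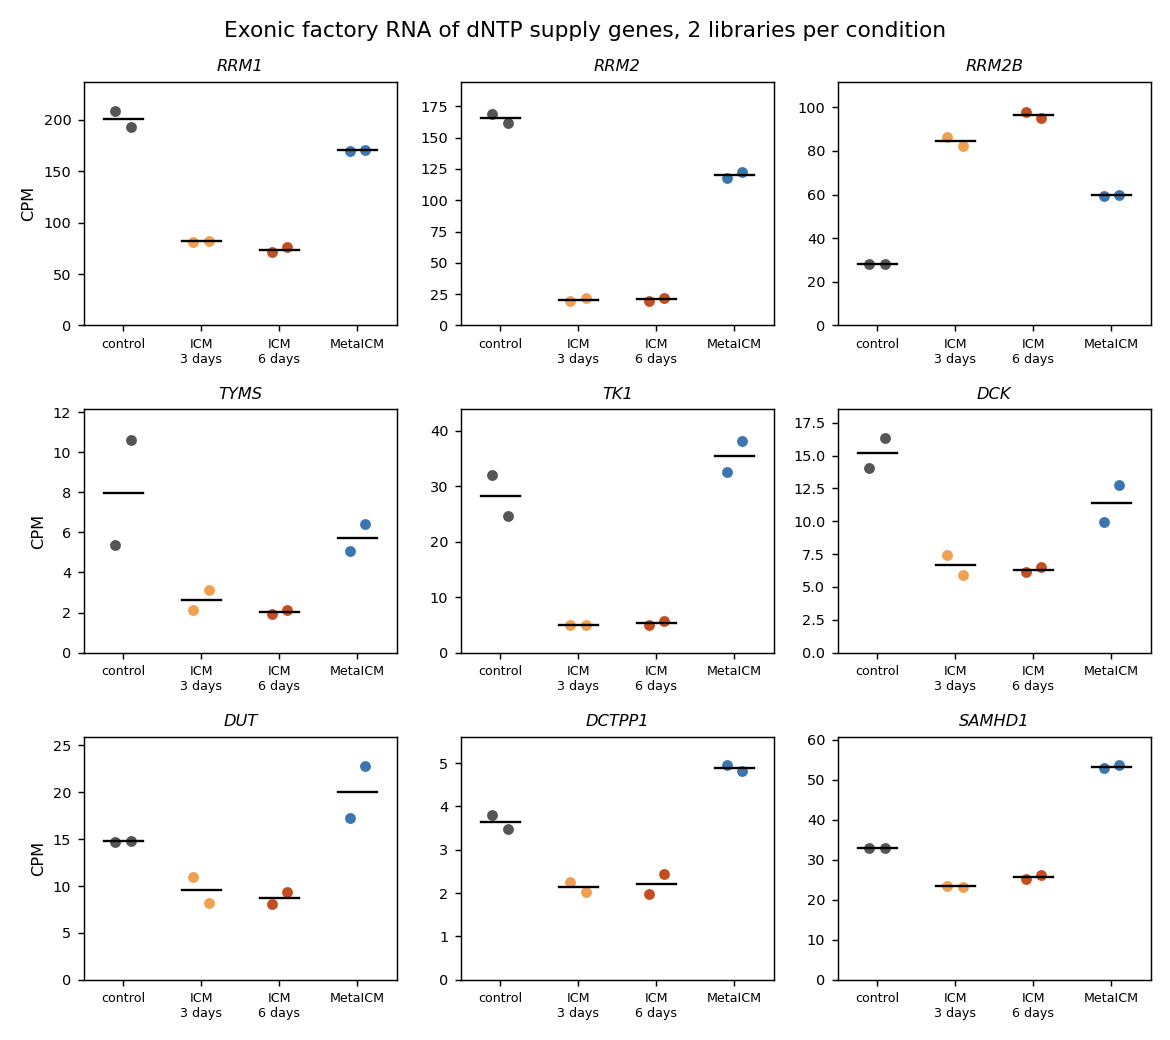
Each panel shows one gene, with CPM on the y axis from 0 and the 4 conditions on the x axis. Points are libraries and lines are means of 2 libraries. All genes but RRM2B have their lowest means with ICM, and RRM2B is lowest in control. TK1, DUT, DCTPP1 and SAMHD1 have their highest means in MetaICM.

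Compared per kilobase of exon (RPKM), the small subunits changed places. Within each library, RRM2 was 6.68 and 6.35 times RRM2B in control, 0.248 and 0.297 times after 3 days, 0.226 and 0.261 times after 6 days and 2.21 and 2.28 times in MetaICM. RRM2B thus made up 13.3% ± 0.413 (SD, n = 2) of the 2 together in control, 78.6% ± 2.16 after 3 days, 80.4% ± 1.56 after 6 days and 30.8% ± 0.478 in MetaICM. Their sum went from 42.1 ± 1.11 RPKM in control to 21.3 ± 0.118 and 23.8 ± 0.0319 after 3 and 6 days and 38.4 ± 0.915 in MetaICM. With ICM, RRM1 was close to RRM2B, at 1.37 ± 0.0642 times its level after 3 days and 1.08 ± 0.0711 times after 6 days, against 10.02 ± 0.573 in control and 4.02 ± 0.0215 in MetaICM. These ratios describe the libraries and were not tested.

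**Figure D3:**
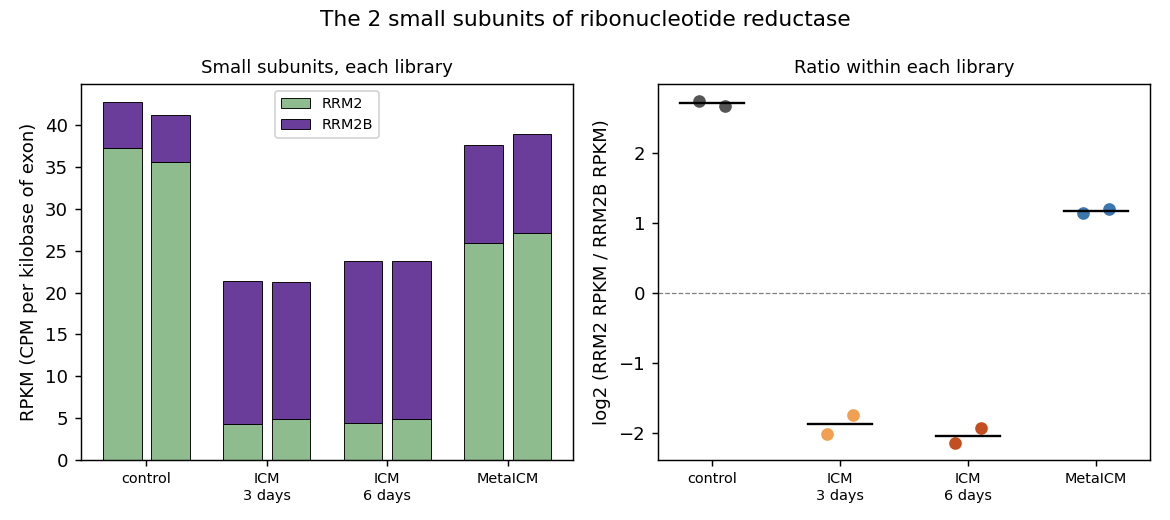
Left, RPKM of RRM2 and RRM2B stacked for each of the 8 libraries, from 0. Right, the log2 ratio of RRM2 to RRM2B within each library, with the mean of each condition as a line. The ratio lies above 0 in control and MetaICM and below 0 in all 4 ICM libraries.

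In the thymidylate branch, the salvage kinase TK1 had the largest fall by estimate. It had 31.9 and 24.7 CPM in control, 4.96 and 4.99 after 3 days, 4.99 and 5.63 after 6 days and 32.6 and 38.2 in MetaICM. It fell to 17.5% of control after 3 days (log2FC −2.51, standard error 0.19, adjusted p = 1.30e-06) and to 18.7% after 6 days (log2FC −2.42, standard error 0.18, adjusted p = 3.52e-06). TK1 lies on chromosome 17 from 76170160 to 76183285.

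TYMS, the thymidylate synthase, fell as well, from fewer reads. Its levels were 5.35 and 10.6 CPM in control, 2.11 and 3.10 after 3 days, 1.93 and 2.13 after 6 days and 5.05 and 6.43 in MetaICM. The ICM libraries lay below both control libraries, which differed from each other by more than any other pair of this gene. ICM left 32.6% of control at 3 days (log2FC −1.62, standard error 0.34, adjusted p = 0.00424) and 25.9% at 6 days (log2FC −1.95, standard error 0.34, adjusted p = 0.00108). Leaving out single libraries gave log2FC ranges from −2.05 to −1.08 and from −2.39 to −1.40. Of its 1612 exon bases on chromosome 18 (657653 to 673577), 966 are shared with ENOSF1 and 106 with TYMSOS, both on the opposite strand. The counting used no strand and pairs on several genes were left out by default, so the level of TYMS rests on the remaining bases. TYMS also has 2 named pseudogenes, whose reads could be mixed with its own. ENOSF1 itself had log2FC values of 0.07 after 3 days (adjusted p = 0.741) and 0.41 after 6 days (adjusted p = 0.0179).

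DUT, the dUTPase, was the least changed of the 3. It had 14.7 and 14.8 CPM in control, 10.99 and 8.22 after 3 days, 8.11 and 9.35 after 6 days and 17.3 and 22.8 in MetaICM. At 3 days the log2FC of −0.61 was just past the fold threshold (standard error 0.20, adjusted p = 0.0358), and at 6 days it was −0.76 (standard error 0.17, adjusted p = 0.00419). The call was lost without ICM 3 days replicate 2 (log2FC −0.41, adjusted p = 0.298) and without ICM 6 days replicate 1 (log2FC −0.66, adjusted p = 0.0826). DUT lies on chromosome 15 from 48623292 to 48635570 and has 8 named pseudogenes.

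The enzymes of deoxycytidine handling differed in how firmly they moved. DCK, the salvage kinase on chromosome 4 (71859366 to 71896629), had 14.0 and 16.3 CPM in control, 7.40 and 5.93 after 3 days, 6.17 and 6.48 after 6 days and 9.95 and 12.8 in MetaICM. It fell to 44.3% of control after 3 days (log2FC −1.17, standard error 0.20, adjusted p = 0.00112) and 41.8% after 6 days (log2FC −1.26, standard error 0.18, adjusted p = 0.00028). DCTPP1, the dCTP pyrophosphatase on chromosome 16 (30434936 to 30441351), had 3.81 and 3.48 CPM in control, 2.25 and 2.02 after 3 days, 1.99 and 2.44 after 6 days and 4.95 and 4.82 in MetaICM. Beside TYMS it had the fewest reads of the 9 genes, between 30 and 111 pairs per library. The threshold was missed at 3 days (log2FC −0.77, standard error 0.29, adjusted p = 0.0650) and at 6 days (log2FC −0.72, standard error 0.27, adjusted p = 0.0505).

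SAMHD1, the dNTP hydrolase, did not follow RRM2B with ICM. It had 32.9 CPM in both control libraries, 23.5 and 23.2 after 3 days, 25.1 and 26.2 after 6 days and 52.9 and 53.7 in MetaICM. The ICM libraries were the lowest and the MetaICM libraries the highest. Against control it passed on the p and not on the fold, both at 3 days (log2FC −0.50, standard error 0.14, adjusted p = 0.0211) and at 6 days (log2FC −0.36, standard error 0.13, adjusted p = 0.0412). RRM2 was 6.76 ± 0.220 times SAMHD1 per length in control (SD, n = 2), 1.19 ± 0.126 times after 3 days, 1.105 ± 0.0544 times after 6 days and 3.04 ± 0.0598 times in MetaICM. SAMHD1 lies on chromosome 20 from 35518178 to 35580246, and 1068 of its 6101 exon bases are shared with TLDC2 on the opposite strand, which had at most 7 pairs in a library. The shared bases are counted in the length of SAMHD1, so the ratios of RRM2 to SAMHD1 may be too high.

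At 6 against 3 days of ICM no gene passed the test. By edgeR 0 of 9 were called in either direction, beside 4.54% of 15845 genes called lower and 3.53% called higher. None had an unadjusted p under 0.05 either, and DESeq2 also called 0. The log2FC at 6 against 3 days was 0.03 for RRM2 (95% interval −0.23 to 0.29), 0.09 for TK1 (−0.34 to 0.52), −0.16 for RRM1 (−0.35 to 0.04) and −0.34 for TYMS (−0.96 to 0.28). RRM2B came nearest to a difference, at 0.19 (interval −0.0034 to 0.38, unadjusted p = 0.0538, adjusted p = 0.163). The intervals of TYMS and DCTPP1 are wide enough to hold a change past the fold threshold in at least one direction.

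MetaICM differed from control in fewer of these genes. RRM2B and SAMHD1 were higher and 0 of 9 were lower by edgeR, beside 7.41% of 15904 genes called higher and 8.99% called lower. DESeq2 also called 0 lower, and 3 genes with a negative log2FC (RRM2, RRM1 and DCK) had an unadjusted p under 0.05. RRM2B was 2.11-fold higher than control (log2FC 1.08, standard error 0.12, adjusted p = 0.000291). SAMHD1 was 1.62-fold higher (log2FC 0.69, standard error 0.12, adjusted p = 0.00271), although without MetaICM replicate 2 its adjusted p was 0.05003 and the call was lost. RRM2 had a log2FC of −0.46 (standard error 0.10, adjusted p = 0.01004), under the fold threshold. The other 6 genes had log2FC values from −0.44 to 0.44 and adjusted p of 0.0694 to 0.278. Among them TYMS hung on single control libraries, with −0.88 (adjusted p = 0.000134) without control replicate 1 and 0.11 without control replicate 2.

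Set directly against 6 days of ICM, MetaICM had 8 of the 9 genes higher and 1 lower, RRM2B, beside 15.7% of 16036 genes called higher and 12.0% called lower. TK1 was 6.66-fold higher (log2FC 2.74, standard error 0.13, adjusted p = 9.51e-14) and RRM2 5.71-fold higher (log2FC 2.51, standard error 0.08, adjusted p = 6.40e-16). RRM1, TYMS and DUT had log2FC values of 1.21, 1.503 and 1.204, and DCTPP1, SAMHD1 and DCK of 1.14, 1.055 and 0.85, with adjusted p of 0.000159 or less. RRM2B had 61.9% of its level at 6 days (log2FC −0.69, standard error 0.07, adjusted p = 7.32e-08). DCTPP1, which missed the threshold in every comparison with control, was called here.

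Against 3 days of ICM, MetaICM had the same 8 genes higher and 0 lower by edgeR and by DESeq2, beside 13.1% of 16209 genes called higher and 10.3% called lower. TK1 had a log2FC of 2.83 (adjusted p = 8.99e-10), RRM2 of 2.55 (adjusted p = 1.04e-10) and SAMHD1 of 1.19 (adjusted p = 1.68e-07). RRM2B had −0.50 (unadjusted p = 4.22e-05, adjusted p = 0.000309), which did not pass the fold threshold. The call of DCK (log2FC 0.76) was lost without MetaICM replicate 2, at 0.57 with an adjusted p of 0.0670. The comparisons of MetaICM with 3 days, 6 days and control share the MetaICM libraries.

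Per length, the order of the 9 genes differed between conditions. RRM1 came first in all 4, at 56.1 ± 2.94 RPKM in control (SD, n = 2), 22.8 ± 0.321 after 3 days, 20.5 ± 0.933 after 6 days and 47.6 ± 0.142 in MetaICM. The next in control were RRM2 at 36.5 ± 1.13 RPKM and TK1 at 16.7 ± 3.03, and these 3 ranks were apart in every library. After 3 and 6 days of ICM, RRM2B came next at 16.7 ± 0.552 and 19.1 ± 0.397 RPKM, followed by RRM2 at 4.55 ± 0.434 and 4.65 ± 0.365. RRM2 overlapped the next gene, DUT, after 3 days. In MetaICM the order was again RRM1, RRM2 at 26.5 ± 0.817 RPKM and TK1 at 20.9 ± 2.33, followed by RRM2B at 11.8 ± 0.0986. In control, the libraries of DUT, DCK and RRM2B overlapped from one rank to the next, as did those of SAMHD1 and TYMS. DCTPP1 had the lowest mean in control, 3 days and MetaICM and TYMS at 6 days, but their libraries overlapped at 3 days and in MetaICM. For TYMS and SAMHD1, RPKM counts the bases shared with other genes in the length. Summed over the 7 enzymes other than RRM2B and SAMHD1, the level was 129 ± 4.30 RPKM in control, 40.3 ± 0.177 after 3 days, 37.4 ± 2.34 after 6 days and 115 ± 6.32 in MetaICM.

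Across the 8 libraries, log2 CPM of RRM2 went with that of RRM1 (Pearson r 0.995) and TK1 (r 0.976) and against that of RRM2B (r −0.885), while RRM2B and SAMHD1 had an r of −0.388 and DCTPP1 and SAMHD1 of 0.954. The libraries fall into 4 conditions, so these values describe the condition means for the most part. Of 11166 genes with a mean of 5 CPM or more, those closest to RRM2 over the 8 libraries were SHCBP1, SYNE2 and TPX2 (r 0.999 each), of which TPX2 is a spindle assembly factor. Closest to RRM2B were ZFAND5, PURPL, a long noncoding RNA regulated by p53, and SLC35E1 (r 0.996 each). PURPL had 0.872 CPM in control, 11 after 3 days, 13.4 after 6 days and 5.12 in MetaICM. It was under 5 CPM in control and passed the limit on the mean through the conditions where RRM2B was also higher. Its place in this list is a description and was not tested. Closest to SAMHD1 were TMSB10, LOXL3 and SEMA6A (r 0.992 each), and SEMA6A had 8.55 CPM in control, 3.68 after 3 days, 4.35 after 6 days and 31.2 in MetaICM.

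The surrounding pathways moved less uniformly. Of 58 further genes in 6 lists, 55 were tested, and CDA, NT5M and CMPK2 were too low in the comparisons with control. After 3 days 16 were lower and 5 higher (median log2FC −0.06), after 6 days 12 lower and 5 higher (median −0.17), and in MetaICM 3 lower and 4 higher (median 0.0013). The shares over all genes, which hold for each list below, were 13.2% lower and 8.85% higher after 3 days, 17.2% and 13.3% after 6 days and 8.99% and 7.41% in MetaICM. Against these, the counts of the lists together were near the background after 6 days and in MetaICM. MetaICM against 6 days had 16 higher and 2 lower of 55, beside 15.7% and 12.0% of all genes.

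The folate cycle that feeds TYMS stood at 4 lower and 0 higher of 6 genes after both 3 and 6 days, with medians of −0.67 and −0.73, beside 13.2% and 17.2% of all genes called lower. After 6 days the lower genes were MTHFD2 (log2FC −1.52, adjusted p = 4.31e-06), SHMT1 (−0.96, adjusted p = 0.0106), SHMT2 (−0.78, adjusted p = 0.00529) and MTHFD1 (−0.67, adjusted p = 0.000866). All 4 handle one-carbon units carried by folate. MTHFD2 had 135 ± 10.3 CPM in control, 42.3 ± 7.04 after 3 days, 47.3 ± 1.86 after 6 days and 94.0 ± 7.91 in MetaICM. In MetaICM against control, 1 of the 6 genes was lower.

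The nucleoside and nucleotide kinases had 1 lower and 2 higher of 12 genes after 3 days and 1 lower and 3 higher after 6 days. The lower counts were under the shares of all genes called lower, 13.2% and 17.2%, and 8.85% and 13.3% of all genes were called higher. The lower gene was DTYMK, the thymidylate kinase that acts after TYMS and TK1, with a log2FC of −1.01 after 6 days (adjusted p = 0.000781). The higher genes after 6 days were NME3 (0.83, adjusted p = 0.00319), a nucleoside diphosphate kinase, CMPK1 (0.77, adjusted p = 0.000789), which phosphorylates CMP, UMP and dCMP, and DGUOK (0.64, adjusted p = 0.0110), the mitochondrial deoxyguanosine kinase. In MetaICM 3 kinases, NME3, NME4 and GUK1, were higher and 0 lower than control.

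Genes of nucleotide breakdown and pool cleaning had 1 higher and 0 lower of 13 in each comparison with control, near or under the shares of all genes called higher (8.85%, 13.3% and 7.41%). After 3 days this gene was UPP1 (log2FC 0.87, adjusted p = 0.00718). After 6 days it was NT5E, an ectonucleotidase (log2FC 0.71, adjusted p = 0.00153), as in MetaICM (log2FC 1.06, adjusted p = 0.000637). De novo purine synthesis had 5 lower and 1 higher of 13 genes after 3 days and 2 lower and 0 higher after 6 days, beside 13.2% and 17.2% of all genes called lower, so that the later count was under the background. The lower genes after 6 days were PFAS (log2FC −1.38, adjusted p = 3.01e-05) and ATIC (−0.68, adjusted p = 0.0165). PFAS had 137 ± 23.1 CPM in control, 47.8 ± 2.27 after 3 days, 52.8 ± 4.86 after 6 days and 123 ± 3.12 in MetaICM. De novo pyrimidine synthesis had 2 of 5 genes lower after 3 days and 1 after 6 days, CTPS2, a CTP synthase (log2FC −0.67, adjusted p = 0.00224). The later count is near the 17.2% of all genes called lower, and the earlier stands beside 13.2%.

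The last list holds genes whose proteins act on RRM2, SAMHD1 or ribonucleotide reductase. It had 4 lower and 1 higher of 6 genes after both 3 and 6 days, with medians of −1.53 and −1.47, beside 13.2% and 17.2% of all genes called lower and 8.85% and 13.3% called higher. After 6 days CDK1, which phosphorylates SAMHD1 with cyclin A, had a log2FC of −3.86 (adjusted p = 1.54e-07), and CCNF, the cyclin that directs RRM2 protein to breakdown, had −2.88 (adjusted p = 2.47e-07). CDK2 had −0.74 (adjusted p = 0.00265). The higher gene was AHCYL1, whose protein can inhibit ribonucleotide reductase, with a log2FC of 0.61 (adjusted p = 0.00108). In MetaICM 1 of these genes was lower than control and 0 higher.

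**Figure D4:**
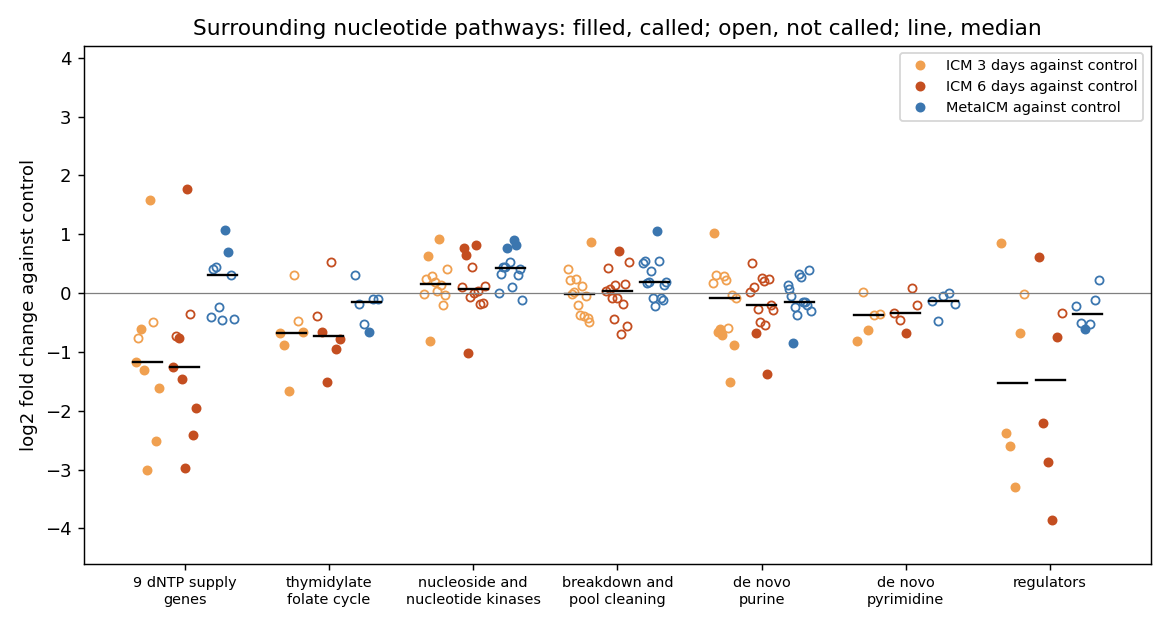
The log2FC against control is plotted on the y axis for the 9 genes and for the tested genes of the 6 pathway lists, in 3 days of ICM, 6 days of ICM and MetaICM. Filled points were called, open points were not, and lines are medians. The 9 genes, the folate cycle and the regulators have ICM medians below −0.6, while the kinases and the breakdown genes lie around 0.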

How the data were processed

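Factory RNA from 8 IMR90 libraries (4 conditions, 2 each) was analysed. Per the labels and the file headers, paired reads were mapped to hg19 with STAR (version 2.6.0c), and the authors deposited raw counts of read pairs on RefSeq exons from featureCounts (version 1.6.3), with both ends mapped, no chimeric pairs, primary alignments and no strand setting. A pair that maps to several places may therefore be counted at one of them. Intronic counts were not analysed here.

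From these counts, each pair of conditions was fitted on its own 4 libraries with edgeR (version 4.0.16, R 4.3.3), using TMM, filterByExpr at a count minimum of 10, the quasi-likelihood test and Benjamini-Hochberg adjustment over all genes tested. Calls needed an adjusted p under 0.05 and an absolute log2FC over 0.6. CPM used TMM factors over all 8 libraries, and RPKM is CPM per kilobase of exon. log2 CPM for correlations used a prior count of 2. Intervals are 95%.

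All 9 genes are named with every library. From each pathway list the text names the 2 highest and 2 lowest log2FC among genes called at 6 days against control, and for RRM2, RRM2B and SAMHD1 the 3 genes most alike. UPP1, NME4 and GUK1 are also named, to show which genes lay behind equal counts. The genes, lists and tests were chosen with earlier results of these data known. The fits were tested on simulated data. Counts within a condition differed by more than sampling noise, so none was taken as a repeat deposit of another. Chi-square per degree of freedom was 24.8 in control, 11.6 after 3 days of ICM, 5.81 after 6 days and 7.22 in MetaICM. Replicate numbers were not taken to pair the libraries. Alternatives were DESeq2 (version 1.42.0), its size factors, upper-quartile factors, library totals, other count filters, a replicate block, an adjusted p of 0.01, thinning to 12095123 pairs, all 8 libraries in one fit and each library left out. Scripts used Python 3.11.15, pandas 2.3.3, numpy 2.4.6, scipy 1.17.1 and matplotlib 3.10.9. Pseudogenes were counted in GENCODE v44lift37, and promoter sequences are from RefSeq.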

Additional observations from a re-analysis of the deposited data

How the results depend on the processing

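Under the alternatives other than leaving out a library, 540 values kept their direction and their side of the threshold, 5 gained a call, 3 lost one and 1 changed sign. DUT after 3 days lost its call with library totals (log2FC −0.54, adjusted p = 0.0544), with DESeq2 (adjusted p = 0.0571) and at an adjusted p of 0.01. DCTPP1 gained one after 3 days with all 8 libraries in one fit (adjusted p = 0.0243), and after 6 days in that fit (adjusted p = 0.0250) and with at least 10 counts in every library (adjusted p = 0.0430). Thinning turned DCTPP1 at 6 against 3 days to −0.00053. At an adjusted p of 0.01, all genes called in MetaICM against control fell to 868 lower and 664 higher (from 1430 and 1179), and pathway genes higher after 3 days to 3.

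When single libraries were left out (the lone one is assumed to vary like the others), genes called lower ranged from 5 to 6 after 3 days, 5 to 7 after 6 days and 0 to 1 in MetaICM against control, and genes called higher from 1 to 2 in the last and 7 to 8 in MetaICM against 3 days. The log2FC of TYMS in MetaICM against control ranged from −0.88 to 0.11. At 6 against 3 days, ranges that cross 0 were −0.062 to 0.12 for RRM2, −0.00089 to 0.19 for TK1, −0.34 to 0.088 for DUT, −0.24 to 0.095 for DCK and −0.12 to 0.19 for DCTPP1. All genes called in MetaICM against control ranged from 580 to 1970 lower and from 469 to 2116 higher, and pathway genes from 1 to 2 lower and 2 to 8 higher. After 3 days all genes higher ranged from 851 to 1898, pathway genes higher from 1 to 5, and after 6 days pathway genes higher from 3 to 6. The cause was not tested.

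The titles share replicate numbers. Deviations of same-numbered libraries correlated between −0.265 (3 days of ICM and MetaICM) and 0.411 (control and 3 days of ICM) over 9844 genes. The numbers were not taken as pairs in the main fits. With the replicate block, 7 genes were lower and 1 higher after 3 and after 6 days, DCTPP1 being added (adjusted p = 0.0328 and 0.0443), and the counts of the other comparisons did not move. Pairing MetaICM and 3 days crosswise, an alternative chosen after seeing the data, gave 8 higher and 0 lower.

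TYMS and DCTPP1 had 30 to 148 pairs per library, and the 2 control libraries of TYMS also differed (5.35 and 10.6 CPM). The parts of depth and of this spread in their wide intervals were not tested.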
